A study of Mus musculus with 6 samples.

Results

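Genes used as tissue markers of papillary thyroid cancer were followed in sorted mouse thyroid tumor cells, comparing tumors driven by mutant YAP with tumors that also carried mutant Braf. The 9 genes are Lgals3, Fn1, Met, Dpp4, Cited1, Lcn2, Cdh3, Cd44 and Tff3. They were taken by symbol, as a list chosen with earlier results of these data known, and all 9 were among the 35027 genes of the table. YAP mice expressed YAPS127A, a form of YAP that stays in the nucleus, from a transgene that doxycycline (dox) switches on in follicular cells of the thyroid. In BrafYAP mice the transgene was combined with BrafV600E, an activated kinase of the MAPK pathway made from the endogenous Braf locus. Both genotypes received dox in the chow from 4 weeks of age, and both used Cre recombinase under a promoter of thyroid follicular cells, which turned on the dox-dependent activator together with the red fluorescent reporter Kate. RNA-seq was performed on about 20000 Kate-positive cells per library, with 3 libraries per genotype (YAP replicates 1, 2 and 3, and BrafYAP replicates 1, 2 and 6). By the labels YAP libraries were pools of 3 tumors and BrafYAP libraries single tumors (1 each), so that pooling and genotype cannot be told apart. The study's methods describe a single tumor for every replicate and its main text a later start of dox, and the labels are followed here. No thyroid without mutant YAP was among the samples. In the study's histology no tumor of either genotype was classed as papillary. YAP tumors were poorly differentiated cancers, and BrafYAP tumors were poorly differentiated or, for the most part, anaplastic.

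Papillary cancer is the thyroid cancer most tightly linked to activating BRAF mutations. Its pathology is recognized in part by proteins that normal follicular cells make little of. They include the hepatocyte growth factor receptor MET, the hyaluronan receptor CD44, the cell-cell adhesion molecule P-cadherin (Cdh3), the matrix protein fibronectin (Fn1), the cell-surface peptidase DPP4, the lectin galectin-3 (Lgals3), the iron-siderophore carrier lipocalin-2 (Lcn2) and the nuclear coactivator CITED1. TFF3, a secreted trefoil peptide, is used in the opposite direction, since human thyroid tissue expresses it and papillary cancer has less of it.

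The estimated reads behind the libraries ranged from 26.2 to 36.9 M. Levels are given here as TPM recomputed with the exonic length of each gene, because the deposited values had been divided by the genomic span, introns included. Levels of different genes can be compared on this scale. BrafYAP replicate 6 had the lowest correlation with the other libraries, closely followed by YAP replicate 1. The median Pearson's r was taken across 14768 genes with a mean of at least 1 TPM, where genes are not independent replicates. It was 0.828 for BrafYAP replicate 6, 0.846 for YAP replicate 1 and 0.905 to 0.927 for the rest. The follicular lineage gene Pax8 was at 75.9 to 219.5 TPM and Nkx2-1 at 4.65 to 23.1 TPM in all 6 libraries. Thyroglobulin (Tg) was at 12.0 to 170.3 TPM in YAP, at 1.29 and 0.532 TPM in BrafYAP replicates 1 and 2, and at 196.0 TPM in BrafYAP replicate 6. Macrophage markers were abundant in the sorted cells of both genotypes, and in bulk RNA fewer cells of a type and less RNA per cell cannot be told apart.

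The 9 genes covered the whole range of expression. Lgals3 was the highest in 5 of 6 libraries, above 99.5 to 99.9% of the genes with a value over 0, and Tff3 was listed at 0 in each of the 6 libraries. In YAP cells Lgals3 (2129 to 2487 TPM) was followed by Fn1 (1042 to 1519 TPM), and Lcn2 (167.4 to 1034 TPM) overlapped Cd44 (229.5 to 481.9 TPM). Cdh3 lay far below them (7.66 to 17.1 TPM) and above Met (3.25 to 5.79 TPM). Cited1 (0.302 to 0.373 TPM) and Dpp4 (0.129 to 0.503 TPM) overlapped each other near the bottom. In BrafYAP replicates 1 and 2 the order was much the same, with Lcn2 above Fn1 in replicate 1, whereas in BrafYAP replicate 6 Lcn2 came first, Dpp4 stood above Met and Cdh3, and Cdh3 took the place just above Tff3.

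**Figure D1:**
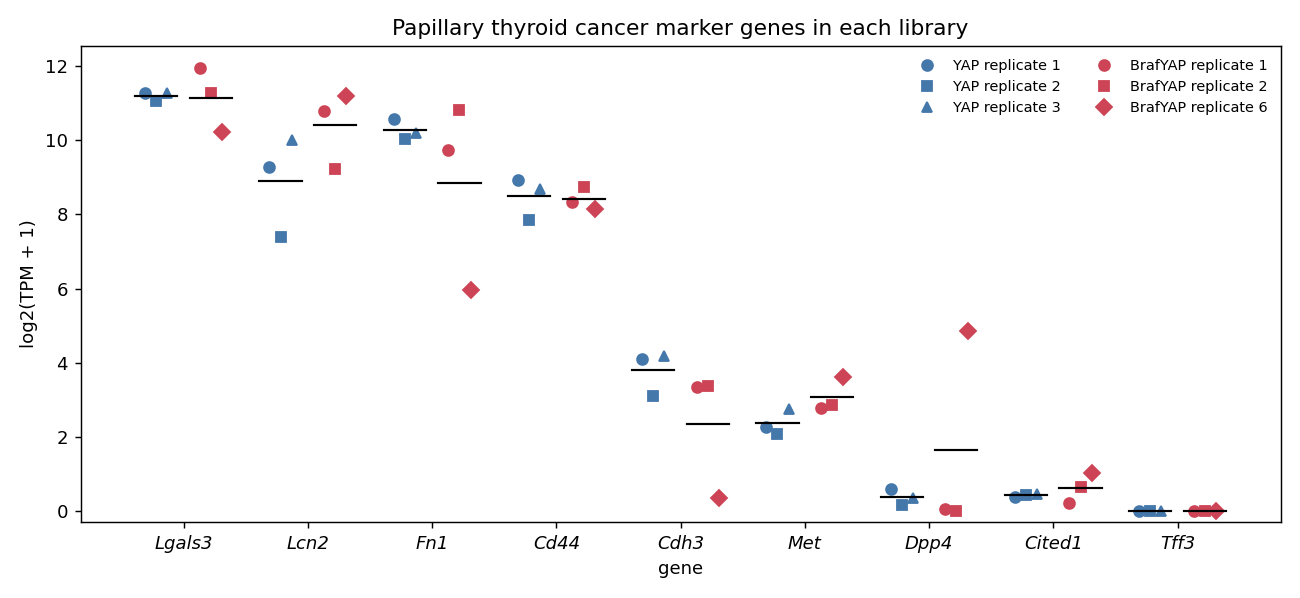
Level of each marker gene in each library as log2(TPM + 1), with YAP libraries in blue, BrafYAP libraries in red and the mean of 3 libraries as a black line. The red diamond, BrafYAP replicate 6, lies below the other 5 libraries for Lgals3, Fn1 and Cdh3 and above them for Lcn2, Met, Dpp4 and Cited1, and all 6 points of Tff3 are at 0.

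To ask whether mutant Braf moved these markers in YAP-driven tumors, BrafYAP was compared with YAP by limma on log2(TPM + 1). Of the markers 7 had a mean of at least 1 TPM and were tested, and 0 of 7 passed a limma adjusted p of 0.05, where 0.42% of all 14768 genes did (62 genes, 0.176% higher and 0.244% lower in BrafYAP). Without adjustment 0 of 7 had a limma p under 0.05, where 20.6% of all genes did. The limma adjusted p-values of the 7 ranged from 0.303 (Met) to 0.956 (Lgals3). By fitted value 3 markers were higher and 4 lower in BrafYAP, with a median log2 fold change of -0.06 beside -0.03 over all genes tested. Dpp4 reached the minimum through BrafYAP replicate 6 alone, and Cited1 and Tff3 stayed below it. The groups were apart for 1 of 7 markers, Met, which was higher in BrafYAP, where 28.2% of all genes did not overlap (13.6% higher and 14.7% lower).

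Met encodes the receptor tyrosine kinase for hepatocyte growth factor (chromosome 6, 17463800 to 17573980, plus strand, mm10). It was at 3.84, 3.25 and 5.79 TPM in YAP replicates 1, 2 and 3 and at 5.84, 6.21 and 11.3 TPM in BrafYAP replicates 1, 2 and 6. The genotypes did not overlap, but BrafYAP replicate 1 and YAP replicate 3 were only 0.0465 TPM apart. The 95% counting intervals of these neighbors (exact Poisson, counting error only) were 5.31 to 6.40 and 5.28 to 6.34 TPM and overlapped almost entirely. The means were 4.29 ± 1.33 (SD, n = 3) and 7.80 ± 3.08 TPM (SD, n = 3). The log2 fold change was 0.71 with an SE of 0.35 (limma adjusted p = 0.303) and a 95% interval of -0.11 to 1.52. It was 0.44 without BrafYAP replicate 6, which held the highest level.

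A short stretch ahead of the RefSeq start of Met, which lies inside the gene as GENCODE M21 draws it, is shown because it holds the letters of an AP-1 motif, the site of the FOS and JUN factors that act downstream of ERK (GRCm38.p6, chr6:17463892-17463921, plus strand, motif in capitals), at 54 bases before the start.
Met site: tgttgcccggcTGAGTCAcgggccgggcag
The motif searched was TGANTCA, which reads the same on both strands. Of 6 markers with a RefSeq promoter entry, 1 held it in the 250 bases before a start, and 6.75% of all 32851 promoter windows of that length did. A match is a description of the letters and not of binding.

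Genes around the receptor were measured as well. Hgf, its ligand, was at 0.303 to 0.975 TPM in YAP and at 0 to 0.169 TPM in BrafYAP, below the minimum for a test. Spint1 and Spint2, membrane inhibitors of the proteases that activate the ligand, were at 53.8 ± 36.8 and 60.1 ± 22.1 TPM (SD, n = 3) in YAP and at 250.3 ± 126.3 and 246.1 ± 118.4 TPM (SD, n = 3) in BrafYAP. In both, each BrafYAP library was above each YAP library, with log2 fold changes of 2.32 (SE 0.59) and 1.99 (SE 0.45) and limma adjusted p-values of 0.0974 and 0.0805. Of the activating proteases, St14 overlapped between the genotypes (21.6 to 127.0 against 111.9 to 224.2 TPM), as did Hpn (5.21 to 24.2 against 16.4 to 81.3 TPM) and Hgfac (0.658 to 1.24 against 0.869 to 5.29 TPM).

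Cd44 encodes the main cell-surface receptor for hyaluronan, a matrix polysaccharide (chromosome 2, 102811141 to 102901665, minus strand). It had the narrowest range over the libraries of the 7 markers tested (2.10-fold), at 481.9, 229.5 and 409.3 TPM in YAP replicates 1, 2 and 3 and at 322.0, 427.7 and 281.3 TPM in BrafYAP replicates 1, 2 and 6. The BrafYAP values lay inside the range of the YAP values. The log2 fold change was -0.07 (SE 0.36, limma adjusted p = 0.925), with a 95% interval of -0.92 to 0.77, so that these libraries leave room for a difference of up to 1.90-fold lower or 1.71-fold higher. Gene-level values do not separate the splice forms of Cd44. The splicing regulators Esrp1 and Esrp2, which favor epithelial splice forms, were at 4.29 to 15.4 and 3.06 to 10.8 TPM in YAP and at 7.46 to 12.2 and 12.7 to 24.5 TPM in BrafYAP, and for Esrp2 the groups did not overlap (log2 fold change 1.47, limma adjusted p = 0.144).

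Among genes for other hyaluronan-linked proteins, Hmmr, a hyaluronan-binding protein of the mitotic spindle, was at 3.40 ± 0.52 TPM (SD, n = 3) in YAP and 0.843 ± 0.290 TPM (SD, n = 3) in BrafYAP (log2 fold change -1.26, SE 0.27, limma adjusted p = 0.0773). The proteoglycan gene Vcan was at 0.127 to 0.336 TPM in YAP and 2.17 to 2.60 TPM in BrafYAP (log2 fold change 1.45, SE 0.25, limma adjusted p = 0.0623). Both pairs of groups were apart. The hyaluronan synthase gene Has2 overlapped, at 9.51 to 24.1 against 5.26 to 48.0 TPM, and so did Has1, at 0.371 to 1.17 against 0.546 to 4.63 TPM.

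Cdh3 encodes P-cadherin, a calcium-dependent adhesion molecule (chromosome 8, 106510891 to 106557297, plus strand). It was at 16.2, 7.66 and 17.1 TPM in YAP replicates 1, 2 and 3 and at 9.19, 9.26 and 0.287 TPM in BrafYAP replicates 1, 2 and 6. BrafYAP replicates 1 and 2 lay within the YAP range, whereas BrafYAP replicate 6 held 16 reads of the gene, 26.7-fold below the next lowest library in TPM. The log2 fold change was -1.44 (SE 0.82, limma adjusted p = 0.364, 95% interval -3.35 to 0.47) and became -0.45 without BrafYAP replicate 6. E-cadherin (Cdh1), the main cadherin of epithelia, was at 179.5 to 603.0 TPM in YAP and at 250.2 to 460.6 TPM in BrafYAP, with 272.0 TPM in BrafYAP replicate 6. Among the catenins, which tie cadherins to the cytoskeleton, Ctnna1 and Ctnnd1 overlapped between the genotypes, and Ctnnb1 was at 103.2 ± 24.8 TPM (SD, n = 3) in YAP and 295.1 ± 45.9 TPM (SD, n = 3) in BrafYAP (log2 fold change 1.52, SE 0.30, limma adjusted p = 0.0745), without overlap. The kidney and thyroid cadherin Cdh16 lay the other way, at 136.4 ± 75.5 and 29.8 ± 19.4 TPM (SD, n = 3), again without overlap (log2 fold change -2.17, SE 0.56, limma adjusted p = 0.0993).

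Fn1 encodes fibronectin, a matrix glycoprotein that cells bind through integrins (chromosome 1, 71585520 to 71653200, minus strand). It was at 1519, 1042 and 1179 TPM in YAP replicates 1, 2 and 3 and at 848.7, 1810 and 61.8 TPM in BrafYAP replicates 1, 2 and 6. BrafYAP replicates 1 and 2 enclosed the YAP range, and BrafYAP replicate 6 was 13.7-fold below the next lowest library. Fn1 ranked above 99.3 to 99.7% of the expressed genes in 5 libraries and above 88.7% in BrafYAP replicate 6. The log2 fold change was -1.42 (SE 1.12, limma adjusted p = 0.502, 95% interval -4.04 to 1.19), and without BrafYAP replicate 6 it was 0.01. Its start overlaps Apol7d on the other strand, a gene at 0 to 1.31 TPM.

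Of the fibronectin receptor subunits, Itga5 was at 28.1 to 86.0 TPM in YAP, 98.8 and 115.7 TPM in BrafYAP replicates 1 and 2, and 16.9 TPM in BrafYAP replicate 6. Itgb1 was at 217.3 to 473.8 and 444.3 to 1088 TPM (log2 fold change 1.06, limma adjusted p = 0.230), and Itgav at 13.9 to 27.9 and 11.4 to 18.7 TPM. Itgb3 was at 3.94 to 6.57 TPM in YAP, 14.7 and 38.7 TPM in BrafYAP replicates 1 and 2, and 1.27 TPM in BrafYAP replicate 6. Tenascin C (Tnc), another matrix glycoprotein, had the shape of Fn1, with 108.5 to 302.4 TPM in 5 libraries and 13.0 TPM in BrafYAP replicate 6. For Fn1, Itga5, Itgb3, Itgav and Tnc this library was the lowest of the 6, as it was for 31.2% of all genes. For Itgb1, at 444.3 TPM there, it was not the lowest.

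Dpp4 encodes a membrane peptidase that trims chemokines and incretin hormones (chromosome 2, 62330073 to 62412231, minus strand). It was at 0.503, 0.129 and 0.266 TPM in YAP replicates 1, 2 and 3, at 0.0469 and 0 TPM in BrafYAP replicates 1 and 2, and at 28.1 TPM in BrafYAP replicate 6. These were 36, 8 and 18 reads in YAP, 3 and 0 reads in BrafYAP replicates 1 and 2, and 2257 reads in BrafYAP replicate 6. BrafYAP replicate 6 was 55.9-fold above the next highest library, and the other BrafYAP tumors were below every YAP library, though the 95% counting intervals of BrafYAP replicate 1 (0.00967 to 0.137 TPM) and YAP replicate 2 (0.0556 to 0.254 TPM) overlapped. The log2 fold change was 1.28 (SE 1.22, limma adjusted p = 0.584, 95% interval -1.58 to 4.13). Without BrafYAP replicate 6 the mean was under the minimum and no test was made. Gm13561, which overlaps Dpp4 on the other strand, was listed at 0 in all 6 libraries.

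The 250 bases before the RefSeq start of Dpp4 are shown as the promoter of the marker with the widest range (GRCm38.p6, chr2:62412232-62412481, minus strand, read toward the gene). Capitals mark a match to CATTCC, the letters of a site for TEAD, the DNA-binding partner of YAP, at 118 bases before the start.
Dpp4 promoter: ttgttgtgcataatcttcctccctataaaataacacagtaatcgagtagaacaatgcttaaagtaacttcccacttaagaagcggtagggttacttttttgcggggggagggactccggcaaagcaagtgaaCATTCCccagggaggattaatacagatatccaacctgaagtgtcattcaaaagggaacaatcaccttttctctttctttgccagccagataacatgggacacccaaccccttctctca
Searched on both strands, these letters were in the windows of 1 of the 6 markers with an entry and in 12.6% of all windows of that length. Both genotypes carried the YAPS127A transgene.

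Relatives of Dpp4 with a mean of at least 1 TPM did not have its pattern. The intracellular peptidases Dpp7, Dpp8 and Dpp9 were at 23.9 to 43.7, 2.44 to 5.89 and 3.94 to 15.6 TPM in YAP and at 18.7 to 38.9, 5.53 to 7.48 and 16.0 to 18.7 TPM in BrafYAP. Dpp9 alone did not overlap (log2 fold change 0.90, limma adjusted p = 0.312). Below that minimum, Fap was at 0.198 to 0.562 TPM in YAP. It was at 0.244 and 0.316 TPM in BrafYAP replicates 1 and 2 and highest in BrafYAP replicate 6, at 0.709 TPM. Dpp6 was at 0 to 0.0247 TPM over all libraries. Cav1, the caveolin gene, was at 648.3 to 1219 TPM in 5 libraries and at 131.2 TPM in BrafYAP replicate 6. Cxcr4, the receptor of a chemokine that DPP4 cleaves, was at 4.55 to 22.8 and 3.35 to 5.79 TPM, and the adenosine deaminase gene Ada at 7.56 to 12.0 and 2.22 to 9.79 TPM, with overlap in both.

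Lcn2 encodes a secreted carrier of iron-binding siderophores (chromosome 2, 32384633 to 32388252, minus strand). It was at 617.2, 167.4 and 1034 TPM in YAP replicates 1, 2 and 3 and at 1751, 600.0 and 2315 TPM in BrafYAP replicates 1, 2 and 6. BrafYAP replicates 1 and 6 lay above every YAP library, and BrafYAP replicate 2 was below YAP replicates 1 and 3. The means were 606.3 ± 433.5 and 1556 ± 874.2 TPM (SD, n = 3), and the log2 fold change was 1.50, the highest among the 7 markers tested (SE 0.76, limma adjusted p = 0.316, 95% interval -0.28 to 3.28). It was 0.75 without YAP replicate 2, which had the lowest level, and 2.08 without BrafYAP replicate 2. Mmp9, the gelatinase that lipocalin-2 binds, was at 14.5 to 60.3 and 51.0 to 157.8 TPM, with overlap (log2 fold change 1.72, limma adjusted p = 0.177). The receptor gene Slc22a17 was at 0.548 to 1.26 and 1.49 to 8.57 TPM, without overlap (log2 fold change 1.25, limma adjusted p = 0.225), and megalin (Lrp2), which takes up lipocalins, was at 0.871 to 2.50 and 1.30 to 3.26 TPM.

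Lgals3 encodes galectin-3, a lectin found in the cytoplasm and outside the cell (chromosome 14, 47367751 to 47386160, plus strand). It was at 2487, 2129 and 2463 TPM in YAP replicates 1, 2 and 3 and at 3932, 2458 and 1200.4 TPM in BrafYAP replicates 1, 2 and 6. The YAP libraries were within 1.17-fold of each other, whereas the BrafYAP libraries spread over 3.28-fold around them. By the labels YAP libraries pooled 3 tumors and BrafYAP libraries held 1, so pooling and genotype cannot be told apart in this spread. The means were 2360 ± 200.1 and 2530.1 ± 1367 TPM (SD, n = 3), and the log2 fold change was -0.06 (SE 0.44, limma adjusted p = 0.956, 95% interval -1.08 to 0.97), so that mean TPM and mean log value differed in sign. Without BrafYAP replicate 6 it was 0.40.

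Of the other galectins, Lgals1 was at 1446 to 2367 TPM in YAP, 1002.7 and 1942 TPM in BrafYAP replicates 1 and 2, and 316.5 TPM in BrafYAP replicate 6 (log2 fold change -1.22, limma adjusted p = 0.326). Lgals9 was at 175.8 to 408.1 and 81.0 to 200.5 TPM, Lgals8 at 38.8 to 63.3 and 26.5 to 97.2 TPM, and Lgals4 at 1.63 to 3.59 and 0.408 to 2.73 TPM, all with overlap. Lgals3bp, which encodes a secreted ligand of galectin-3, was at 290.8 to 487.5 TPM in YAP and 111.4 to 226.0 TPM in BrafYAP, without overlap (log2 fold change -1.30, SE 0.36, limma adjusted p = 0.118).

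Cited1 encodes a transcriptional coactivator that binds p300 and CBP (chromosome X, 102247381 to 102252181, minus strand). It was at 0.302, 0.348 and 0.373 TPM in YAP replicates 1, 2 and 3 and at 0.169, 0.572 and 1.03 TPM in BrafYAP replicates 1, 2 and 6, from 3 to 23 reads. The BrafYAP values lay on both sides of the YAP values. The mean was under the minimum for either scale. With no minimum, the log2 fold change was 0.21 (SE 0.21, limma adjusted p = 0.649). Its relative Cited2 was at 15.4 to 25.3 and 15.2 to 56.2 TPM, Cited4 at 0.326 to 2.02 and 0.688 to 7.62 TPM, and the p300 and CBP genes Ep300 and Crebbp at 3.20 to 9.01 TPM over all libraries. For Ep300 the groups did not overlap, at 6.60 to 9.01 TPM in YAP and 4.41 to 6.26 TPM in BrafYAP (log2 fold change -0.44, limma adjusted p = 0.408).

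Tff3 (chromosome 17, 31125306 to 31129646, minus strand) had 0 reads in all 6 libraries, which allows levels of up to 0.436 to 0.619 TPM by a floor of 3 reads, for counting error only. None of 15 housekeeping genes looked up was listed at 0. Its neighbors in the trefoil family were low too, Tff1 at 0 to 0.934 TPM and Tff2 at 0 to 1.92 TPM. No difference of Tff3 between the genotypes was detectable at this depth.

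**Figure D2:**
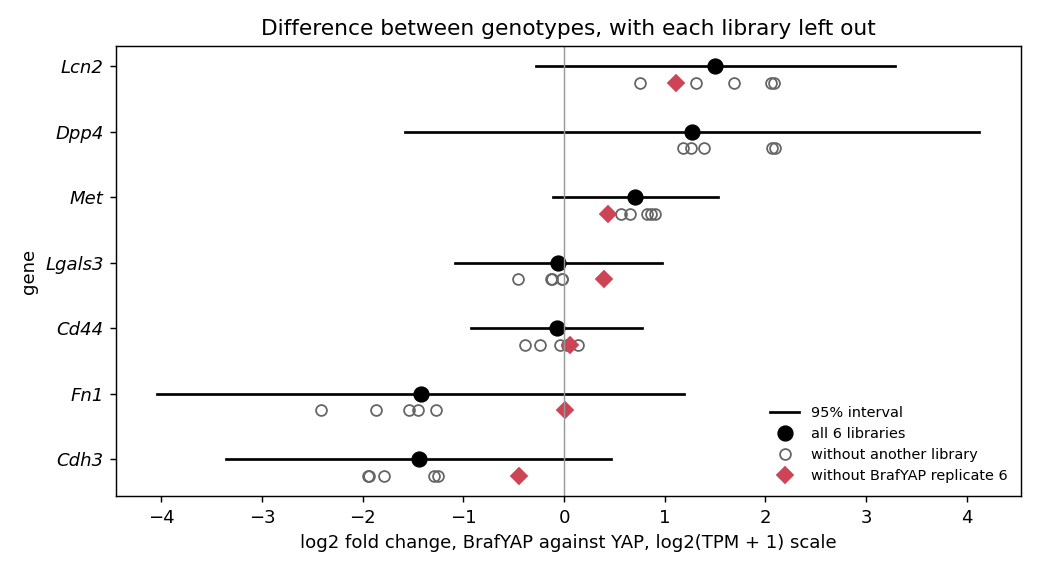
Log2 fold change of BrafYAP against YAP on the log2(TPM + 1) scale for the 7 markers tested, as a black point with its 95% limma interval and, below it, the values with each library left out. All 7 intervals include 0, and without BrafYAP replicate 6 (red diamond, absent for Dpp4, which was then under the minimum) Fn1 moved from -1.42 to 0.01 and Cdh3 from -1.44 to -0.45.

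Much of the spread of the markers lay in 1 library. BrafYAP replicate 6 was the highest or the lowest of all 6 libraries for 6 of the 7 markers tested, where it was so for 54.4% of all genes (31.2% lowest and 23.2% highest). It was apart from the mean of BrafYAP replicates 1 and 2 by at least 2 on the log2(TPM + 1) scale for 3 of 7, Fn1 (-4.30), Cdh3 (-2.99) and Dpp4 (4.83), where 7.44% of all genes were (3.51% lower and 3.93% higher). Dpp4 was among the genes tested only through this library. This compares 1 library with 2 others, and no test was made of it. BrafYAP replicates 1 and 2 were within 1.33-fold of each other for Cd44, Met and Cdh3, and 2.13-fold apart for Fn1 and 2.92-fold for Lcn2.

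The same library held several thyroid genes at levels not seen in BrafYAP replicates 1 and 2. The thyrotropin receptor gene Tshr was at 7.25 TPM, against 0 TPM in BrafYAP replicates 1 and 2, and the iodide transporter gene Slc5a5 at 17.2 TPM, against 0.337 and 0.0734 TPM. Of 12 thyroid follicular markers tested, this library was the highest for 9 and the lowest for 1, where it was so for 23.2% and 31.2% of all genes. The lowest was Pax8, at 75.9 TPM against 183.5 and 108.8 TPM in BrafYAP replicates 1 and 2. Some of the 9 were among the genes tested only through this library. Slc5a5 was at 0.0734 to 0.521 TPM in the other libraries, and Duoxa2 at 0 to 1.47 TPM, with 10.8 TPM in BrafYAP replicate 6. For such genes the highest place was fixed by the minimum, so the count of 9 cannot be set plainly against the share of all genes. The epithelial adhesion gene Epcam was at 283.2 TPM there, against 74.6 and 65.0 TPM in the other BrafYAP libraries and 14.4 to 50.7 TPM in YAP. The epithelial list as a whole did not follow Epcam. Its summed level was 9508 TPM there, against 22968 and 14580 TPM in BrafYAP replicates 1 and 2. Of its 9 genes BrafYAP replicate 6 was the lowest library for 3 and the highest for 2. Endothelial markers also stood out, with a summed level of 51.2 TPM against 2.75 and 2.30 TPM in the other BrafYAP libraries and 3.67 to 33.1 TPM in YAP, among them Pecam1 at 8.80 TPM. The part of these cells in the marker values was not tested. Whole lists are given further on, and the genes of this paragraph were chosen after their values were seen.

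**Figure D3:**
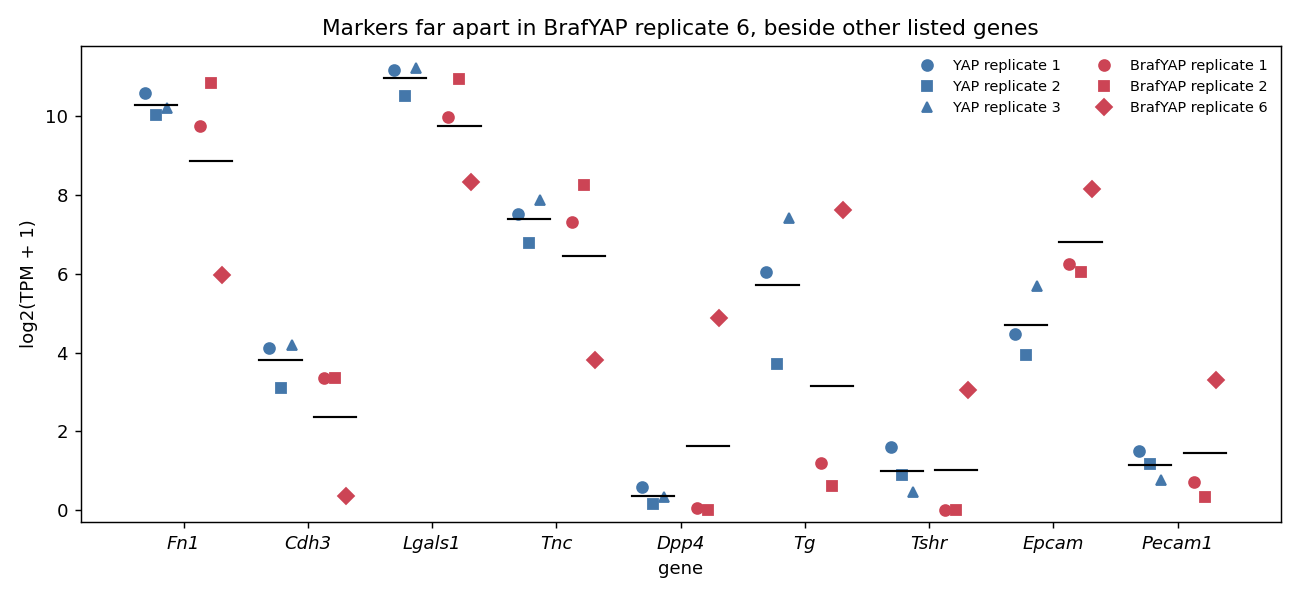
Level as log2(TPM + 1) in each library of 3 markers that were far apart in BrafYAP replicate 6 (Fn1, Cdh3, Dpp4) beside matrix, galectin, thyroid, epithelial and endothelial genes, with YAP in blue, BrafYAP in red and the mean of 3 libraries as a black line. The red diamond is the lowest point for Fn1, Cdh3, Lgals1 and Tnc and the highest for Dpp4, Tg, Tshr, Epcam and Pecam1.

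The markers were then set beside a wider list of genes that human papillary cancers express highly. Of 36 such genes 34 were in the table and 31 were tested, and 0 passed the threshold. Without adjustment 3 were higher and 1 lower at a limma p under 0.05, where 20.6% of all genes were. The groups were apart for 5 of 31, 4 higher and 1 lower in BrafYAP, beside the 28.2% of all genes, and the median log2 fold change was 0.34. Cldn1, a tight junction gene, was the one that lay lower, at 121.9, 68.1 and 122.0 TPM in YAP and 22.7, 26.7 and 24.7 TPM in BrafYAP (log2 fold change -1.98, SE 0.32, limma adjusted p = 0.0615). Tusc3, a subunit of the oligosaccharide transfer machinery, was at 9.06, 52.7 and 16.9 TPM in YAP and 113.2, 158.7 and 107.5 TPM in BrafYAP (log2 fold change 2.56, SE 0.59, limma adjusted p = 0.0847). The surfactant gene Sftpb was at 0.943, 0.258 and 0.142 TPM in YAP and at 70.4, 8.44 and 1631 TPM in BrafYAP (log2 fold change 6.20, SE 1.62, limma adjusted p = 0.103), so that BrafYAP replicate 6 again held the highest level. Also on the list, Krt19 was at 1489 to 4566 and 1239 to 2884 TPM and Timp1 at 541.8 to 1231 and 643.3 to 2614 TPM, both with overlap.

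Of 18 genes that human papillary cancers express at low levels 13 were tested, with 0 past the threshold, 3 lower at an unadjusted limma p under 0.05 (20.6% of all genes in either direction) and a median log2 fold change of -0.60. The groups did not overlap for 4 of 13, beside the 28.2% of all genes, 3 of them lower in BrafYAP. Kit, a receptor tyrosine kinase, was at 7.20, 5.20 and 4.08 TPM in YAP and 1.19, 1.04 and 0.883 TPM in BrafYAP (log2 fold change -1.65, SE 0.29, limma adjusted p = 0.0623). Tfcp2l1, an epithelial transcription factor gene, was at 5.06 to 10.0 and 0.837 to 2.91 TPM (log2 fold change -1.55, SE 0.40, limma adjusted p = 0.0978). Cdh16 was the third.

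Over the partners and relatives named beside the markers, 39 of 51 genes were tested, 0 passed the threshold, and 9 were higher and 3 lower at an unadjusted limma p under 0.05 (20.6% of all genes in either direction). The groups were apart for 7 higher and 4 lower, beside the 28.2% of all genes, and the median log2 fold change was 0.19. Of 10 transcripts that rise with ERK signaling, all tested, 8 were higher at an unadjusted limma p under 0.05 (20.6% of all genes in either direction), with a median log2 fold change of 1.81. Dusp4, an ERK phosphatase gene, was the 1 past the threshold, at 1.79 ± 1.11 TPM in YAP and 57.3 ± 35.1 TPM in BrafYAP (SD, n = 3), and its log2 fold change was 4.28 with an SE of 0.53 (limma adjusted p = 0.0393). That call is lost in every fit that leaves no gene past the threshold, namely scaled reads, a minimum mean of 10, no filter, voom, the replicate block and the fits without any one of YAP replicates 1, 2 and 3 or BrafYAP replicates 1 and 2. The difference between these lists and the markers was not tested.

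For each marker tested, the gene with the most similar profile was the one whose log2(TPM + 1), centred over the 6 libraries, had the smallest root mean square difference from it among 12395 genes. For Lcn2 it was Wfdc2, which encodes a secreted epithelial protein (0.30), at 581.9, 180.3 and 861.5 TPM in YAP and 1016, 539.9 and 1552 TPM in BrafYAP replicates 1, 2 and 6. For Fn1 it was the small heat-shock gene Hspb2 (0.23), at 114.9 to 156.4 TPM in 5 libraries and 6.11 TPM in BrafYAP replicate 6. Cdh3 was closest to Adm, the adrenomedullin gene (0.18), with 52.7 to 117.7 TPM in 5 libraries and 9.77 TPM in BrafYAP replicate 6. Dpp4 was closest to the neuromedin B gene Nmb (0.18), at 2.26 to 3.12 TPM in 5 libraries and 76.2 TPM in BrafYAP replicate 6. The nearest genes of Lgals3, Met and Cd44 were Aste1 (0.13), Inafm1 (0.11) and the pseudogene Rps13-ps2 (0.07), whose reads can be shared with its parent. Among the markers themselves Lgals3 and Cd44 (0.52) and Fn1 and Cdh3 (0.60) were the nearest pairs, and Fn1 and Dpp4 (3.35) the most distant. With 6 libraries many genes can match a profile, and these distances carry no test.

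Several markers are also made by cells other than thyroid cells, macrophages in the case of Lgals3, Cd44 and Fn1. Of 14 macrophage and myeloid markers all were tested and all were lower in BrafYAP by fitted value, 0 past the threshold, 13 at an unadjusted limma p under 0.05 (20.6% of all genes in either direction) and 11 without overlap (14.7% of all genes were lower without overlap), with a median log2 fold change of -1.84. Their summed level was 15950 to 50694 TPM in YAP and 4443 to 15525 TPM in BrafYAP, with 4443 TPM in BrafYAP replicate 6, and the lysozyme gene Lyz2 made up most of it. Complement gene C1qa, a macrophage marker, was at 773.3 to 3047 and 147.6 to 460.9 TPM. None of these markers was under 3 reads in all libraries. The part of macrophage RNA in the marker values was not tested.

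Thyroid follicular markers summed to 397.8 to 837.9 TPM in YAP and 169.8 to 584.9 TPM in BrafYAP, with 12 of 16 tested, 0 past the threshold and a median log2 fold change of -0.18. Epithelial markers summed to 7586 to 23279 and 9508 to 22968 TPM, with 9 of 9 tested and 0 past the threshold. Fibroblast markers summed to 133.7 to 259.1 and 143.7 to 284.1 TPM (7 of 8 tested), neutrophil markers to 12.1 to 21.5 and 6.88 to 18.1 TPM (4 of 10), T cell markers to 11.1 to 21.9 and 14.4 to 16.7 TPM (3 of 8), and endothelial markers to 3.67 to 33.1 and 2.30 to 51.2 TPM (6 of 7), with 0 past the threshold in each. Neutrophils are a known source of Lcn2. Of the neutrophil list, Ly6g was at 0 and Camp under 3 reads in every library, and the other 8 genes had reads, with S100a8, a calcium-binding protein gene, at 1.03 to 3.37 TPM in YAP, 2.99 and 5.78 TPM in BrafYAP replicates 1 and 2, and 8.62 TPM in BrafYAP replicate 6, and Csf3r, the G-CSF receptor gene, at 2.69 to 13.0 and 0.0992 to 1.48 TPM. The part of neutrophil RNA in the Lcn2 values was not tested. Dissociation and stress response genes summed to 6743 to 11819 TPM in YAP and 17719 to 24069 TPM in BrafYAP, and of the 13 tested 7 were higher at an unadjusted limma p under 0.05 (20.6% of all genes in either direction) and 0 past the threshold. The part of this separation in the marker values was not tested.

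**Figure D4:**
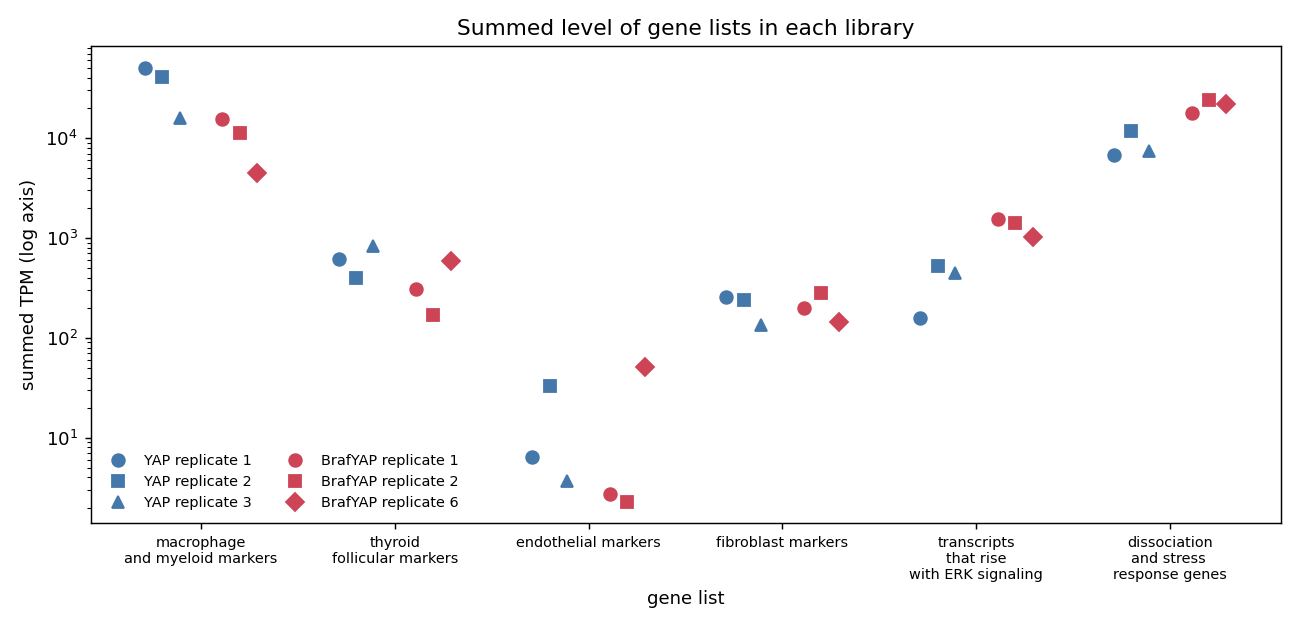
Summed TPM (log axis) of 6 gene lists in each library, with YAP in blue and BrafYAP in red. The macrophage sums of the YAP libraries (15950 to 50694 TPM) lie above those of BrafYAP (4443 to 15525 TPM), the ERK and stress sums lie the other way, and the endothelial sum is highest in BrafYAP replicate 6.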

How the data were processed

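SMART-Seq cDNA (12 cycles) of Kate-positive cells was sequenced as 50-nt paired reads after 8 further PCR cycles. Reads carry no molecular identifiers. Alignment by the authors was to mm10 (STAR 2.6.1d), and gene quantification used Partek's E/M method with Ensembl release 95. The authors deposited TPM with 0.0001 added, 1 column per library. Column totals were 181217.6, not those of TPM. For low values (under 200 reads), value × genomic span, divided by a step found for each library, came within 0.05 of a whole number for 71.7 to 76.0% of genes, against 22.4 to 25.1% with the exonic length. TPM were therefore recomputed as (value - 0.0001) × span / exonic length, rescaled per library, for 34645 genes at one locus in GENCODE M21. The same steps give estimated reads. Whether the deposited counting used strand is not given in the sources used here.

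BrafYAP and YAP were compared with limma 3.58.1 (R 4.3.3, eBayes with a trend) on log2(TPM + 1), keeping genes that averaged 1 TPM or more over the libraries, two-sided, Benjamini-Hochberg adjusted over all genes tested, threshold 0.05. Replicates are separate libraries by their labels. Named genes are the markers, their listed relatives with a mean of at least 1, the 3 listed papillary cancer genes per direction with the smallest p among those without overlap, and the nearest profile of each marker. The marker genes and lists were chosen with earlier results of these data known. Hgf, Fap, Dpp6, Tff1, Tff2, the genes beside BrafYAP replicate 6, Dusp4, Krt19, Timp1, Pax8, Nkx2-1, C1qa, Lyz2, Ly6g and Camp were named outside that rule, after their values were seen. One gene was left out of 2 of the lists and is not reported here. The fit was tested on simulated data with independent normal noise, which held no outlying library such as BrafYAP replicate 6. Promoters are those of RefSeq on GRCm38.p6. Two-sided intervals are 95%.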

Additional observations from a re-analysis of the deposited data

How the results depend on the processing

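Under 17 alternatives, 0 of the markers passed the threshold, with limma adjusted p-values of 0.125 or more, and 100 of 112 marker values kept their direction. The median of the markers tested stayed between -0.13 and 0.23 over the leave-one-out fits and between -0.11 and 0.16 otherwise. Lgals3 turned to 0.0023 with median-ratio rescaling, to 0.40 with array weights and to 0.43 with a replicate block. Dpp4 turned to -0.0932 with array weights, -0.35 with the replicate block and -0.53 with voom on the estimated reads. Cd44 turned to 0.16 with the block. With each library left out, Lgals3 ranged from -0.45 to 0.40, Fn1 from -2.41 to 0.0103, Cd44 from -0.39 to 0.14, Met from 0.44 to 0.90, Lcn2 from 0.75 to 2.08 and Cdh3 from -1.94 to -0.45. Dpp4 ranged from 1.18 to 2.10 only over the fits that kept BrafYAP replicate 6. Without that library Dpp4 was under the minimum and has no value. Array weights brought Met to 0.17, Lcn2 to 0.57, Cdh3 to -0.85 and Fn1 to -0.29, and the replicate block brought Cdh3 to -0.26 and Fn1 to -0.02. Cdh3 was -2.17 on scaled reads, -2.18 with voom and -2.01 with a pseudocount of 0.1. The positive ends of Lgals3 and Fn1 were without BrafYAP replicate 6, and Cd44 was also positive without YAP replicate 1, YAP replicate 3 or BrafYAP replicate 6.

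The count of all genes past the threshold was 62 and moved widely. It was 18 on the deposited values (1449 at an unadjusted p under 0.05), 34 with a pseudocount of 0.1, 101 with quantile normalization, 19 with median-ratio rescaling and 4118 with array weights. It was 0 on scaled reads (3404), with a minimum mean of 10 (1562), with no filter (3892), with voom (3415) and with the replicate block (2632). Over the leave-one-out fits it ranged from 0 to 200, the latter without BrafYAP replicate 6, and it was 0 without any one of the other 5 libraries. The cause was not tested. Replicate numbers 1 and 2 are shared by the genotypes, but the deviations of same-numbered libraries correlated at only -0.0476 and 0.0604, so the numbers were not taken to pair the samples.

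With 3 libraries per group and 1 tumor in each BrafYAP library, the intervals of Fn1, Cdh3, Dpp4 and Lcn2 span more than 3 log2 units. Cited1 rests on few reads in every library and Dpp4 on few reads outside BrafYAP replicate 6, and counting error is large for these values. Levels of genes are limited by the recomputed length, since the transcripts used in these cells are not known from the table.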
